A study of Bos taurus with 12 samples.

Results

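The genes described are those of the mitochondrial ribosomal proteins, taken as every gene whose symbol begins with MRPL or MRPS followed by a number. The array named 67 such genes among the 9155 genes it named in all. They were covered by 84 probe sets, and for genes with several, the probe set that varied most across the 12 arrays, by its SD, was used. A further 11 genes of this name pattern are in the bovine gene table (MRPL1, MRPL17, MRPL33, MRPL40, MRPL47, MRPL54, MRPS10, MRPS12, MRPS18C, MRPS21 and MRPS33) and were not analysed here. Expression was measured in papillae of the ventral sac of the rumen from 4 Holstein dairy cows. Week 0 is the sample of each cow on a high forage diet, which the labels call the control, and weeks 1 and 3 are samples of the same cow during a grain challenge. Each week has 4 arrays, 1 per cow, and the sources used here do not give the age of the cows. All 4 cows received grain, so diet and calendar week cannot be told apart.

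Mitochondria have their own ribosome, which translates the few proteins still encoded in mitochondrial DNA. These are core subunits of the respiratory chain and of ATP synthase. All protein components of this ribosome are encoded in the nucleus, made in the cytosol and imported. Part of them have a counterpart in the bacterial ribosome and part were added during the evolution of mitochondria. Rumen epithelium absorbs the short-chain fatty acids of fermentation, oxidises much of the butyrate in its mitochondria and forms ketone bodies from it.

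Of the 67 genes 45 encode proteins of the large subunit, 26 with a bacterial counterpart and 19 specific to mitochondria. MRPS30 and MRPS18A are counted there, since their proteins sit in the large subunit despite their names. The small subunit has 21, of which 12 have a bacterial counterpart and 9 do not. The last, MRPS36, is now assigned to the 2-oxoglutarate dehydrogenase complex and is kept because its symbol fits.

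Values are log2, and each probe set was centred so that its median across the 12 arrays is 0. They therefore show how arrays differ and not how abundant a transcript is. For this reason the labelled tissue could not be checked by the level of its markers, and the genes are not ranked by level. In papillae, which hold several cell types, fewer cells of a type and less RNA per cell cannot be told apart. Over the 12 arrays the SD of the 67 genes had a median of 0.176, against 0.159 for all genes. It ran from 0.0499 for MRPL14, a protein of the interface between the subunits, to 0.399 for MRPL57, a small protein specific to the mitochondrial large subunit.

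On 2 of the 12 arrays the genes stood high together, at week 0 of cow 2 and at week 1 of cow 3. In week 0 the median of the 67 genes was 0.03 in cow 1, 0.23 in cow 2, -0.02 in cow 3 and -0.12 in cow 4. At week 1 it was -0.03 in cow 1, 0.0021 in cow 2, 0.25 in cow 3 and 0.01 in cow 4. At week 3 it lay between -0.06 and 0.01 in the 4 cows. The highest and the lowest of these medians thus came from different cows, and both week 0 and week 1 had 1 array far above the other 3. The median of all 9155 genes lay between -0.04 and 0.04 on every array.

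**Figure D1:**
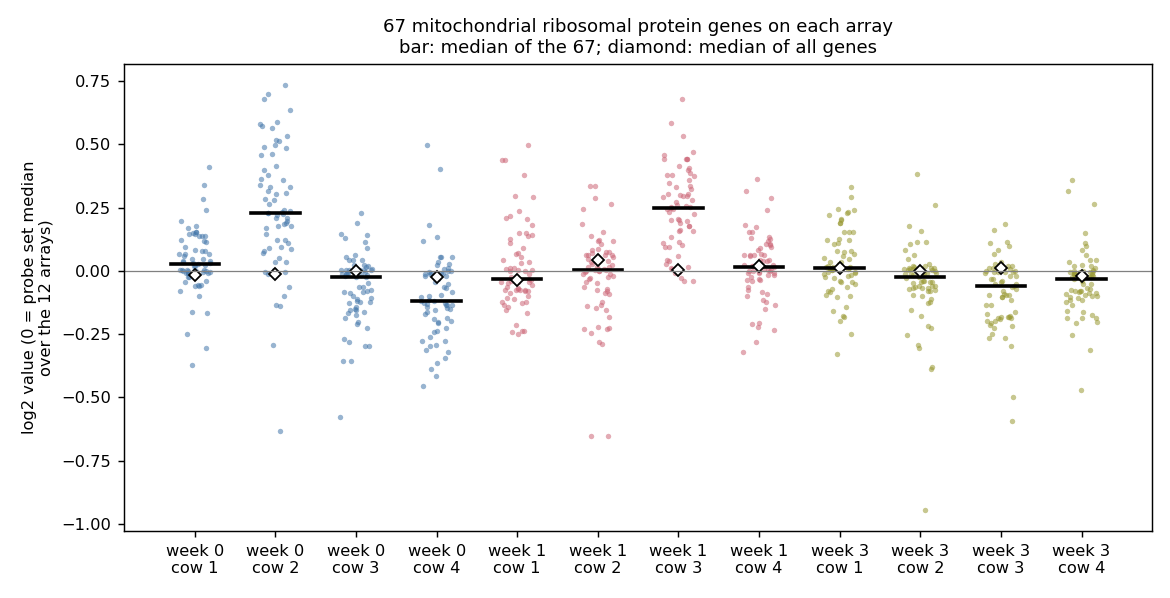
Log2 value of each of the 67 mitochondrial ribosomal protein genes (points) on each of the 12 arrays, with the median of the 67 (bar) and of all 9155 genes (diamond), each probe set being centred on its own median. The points of week 0 of cow 2 and of week 1 of cow 3 lie mostly above 0, with medians of 0.23 and 0.25, and those of week 0 of cow 4 mostly below, with a median of -0.12.

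At week 0 of cow 2, 58 of the 67 genes were above 0, or 86.6%, where 32.4% of all genes were. At week 1 of cow 3 it was 62 of 67, or 92.5%, where 64.5% of all genes were. Of the 67 genes 28 had their highest value of all arrays at week 0 of cow 2 and 25 at week 1 of cow 3. Together this was 79.1% of them, against 18.7% of all genes, and 54 of the 67 were above 0 on both arrays, against 17.1% of all genes. At the other end, 18 genes had their lowest value at week 0 of cow 4 and 14 at week 0 of cow 3. These 2 arrays were picked out after the values were seen, and the shares carry no test.

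Both subunits and both origins had like medians on these arrays. At week 0 of cow 2 the median was 0.24 over the 45 genes of the large subunit and 0.21 over the 21 of the small subunit, and at week 1 of cow 3 it was 0.24 and 0.25. Genes with a bacterial counterpart had medians of 0.23 and 0.25 on these arrays, and genes specific to mitochondria had 0.24 and 0.24.

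MRPL46, a protein of the central protuberance of the large subunit, shows the pattern at the level of 1 gene. Its values in cows 1 to 4 were 0.14, 0.51, -0.12 and 0.055 at week 0. At week 1 they were 0.055, -0.13, 0.68 and 0.038, and at week 3 -0.18, -0.038, -0.27 and -0.095. The second probe set of MRPL46 varied little, with an SD of 0.0343 over the arrays. MRPL23, a protein at the exit of the tunnel through which the new chain leaves, stood at 0.34, 0.73, -0.30 and -0.14 in cows 1 to 4 at week 0, while its values at weeks 1 and 3 lay between -0.23 and 0.20. MRPL58, which releases chains from stalled ribosomes, was at 0.53 in cow 2 at week 0 and at 0.25 in cow 3 at week 1, and between -0.092 and 0.11 on all other arrays. MRPL12, the stalk protein that contacts translation factors, was at 0.49 and 0.24 on these arrays and between -0.19 and 0.21 on the others.

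Other parts of the mitochondrion were examined on the same arrays. The 78 nuclear genes of the respiratory chain and ATP synthase, picked by their symbols, had a median of 0.32 at week 0 of cow 2 and 0.13 at week 1 of cow 3, against -0.21 to 0.08 on the others, and 71 of the 78 were above 0 on each of these 2 arrays. The 15 genes of protein import and mitochondrial mass had medians of 0.22 and 0.15, against -0.08 to 0.03, with 15 and 14 above 0. The 5 measured ribosomal proteins that go by other names, such as GADD45GIP1 and PTCD3, had medians of 0.24 and 0.29, against -0.21 to 0.11. These 3 lists thus had their highest median of the 12 arrays at week 0 of cow 2 or at week 1 of cow 3.

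The machinery around the ribosome had lower medians on these arrays than the ribosome itself. The 12 translation factors had medians of 0.15 and 0.06 on these arrays, and their highest, 0.24, was at week 1 of cow 1. The 13 mitochondrial aminoacyl-tRNA synthetases, which charge tRNAs, had 0.04 and 0.01 and reached 0.21 at week 1 of cow 1. The 21 genes of ribosome assembly and rRNA maturation had 0.02 and 0.02, and the 10 genes of mitochondrial DNA maintenance and transcription 0.0014 and 0.01. The 66 genes of cytosolic ribosomal proteins had a median of 0.18 at week 0 of cow 2, with 55 above 0, but of -0.0046 at week 1 of cow 3, with 27 above 0.

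**Figure D2:**
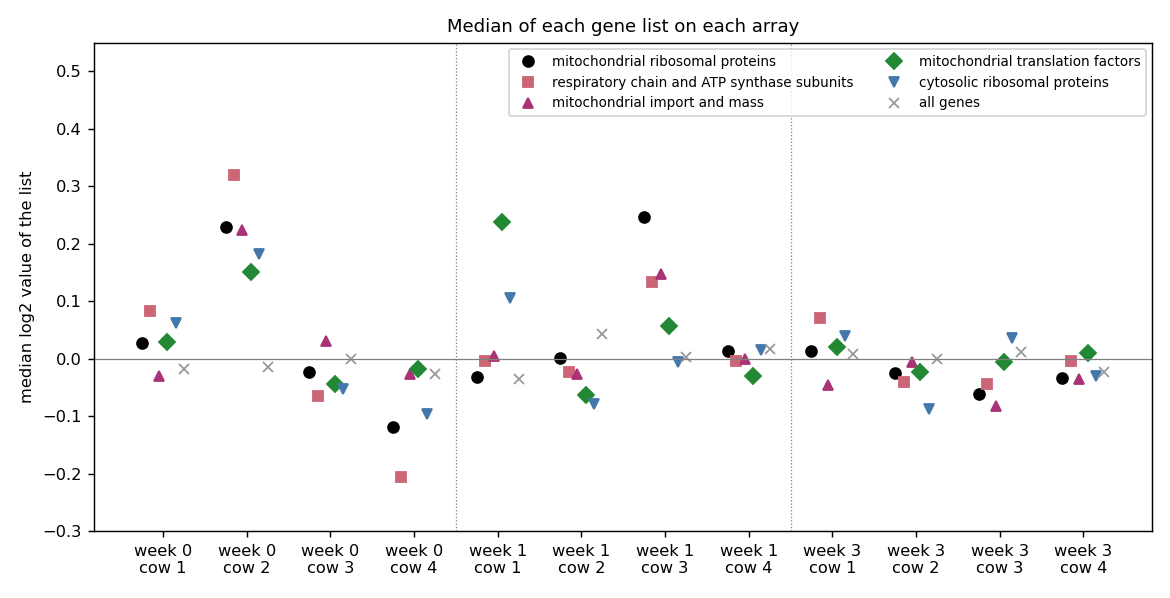
Median log2 value of the 67 mitochondrial ribosomal protein genes, of 4 related gene lists and of all genes on each of the 12 arrays, each probe set being centred on its own median, and dotted lines separate weeks 0, 1 and 3. At week 0 of cow 2 the 5 lists lie at 0.15 to 0.32, while at week 1 of cow 3 the cytosolic ribosomal proteins are at -0.0046 beside 0.25 for the mitochondrial ones.

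Both arrays differed from the rest in other ways too. The 18 probe sets of the hybridization controls, which detect RNA spiked in at that step, averaged 0.72 at week 0 of cow 2, the highest of the 12 arrays, and 0.05 at week 1 of cow 3. They were also at 0.49 and 0.48 at weeks 0 and 1 of cow 1, where the 67 genes had medians of 0.03 and -0.03, and between -0.32 and 0.05 on the others. A measure of RNA integrity, the 3' minus the 5' signal averaged for 6 control transcripts, was -0.12 at week 0 of cow 2, the lowest of the 12, and -0.05 at week 1 of cow 3, within a range of -0.12 to 0.13. The 7 cell cycle genes had a median of 0.54 at week 1 of cow 3 with all 7 above 0, against -0.23 to 0.28 on all arrays but that one, and of -0.01 at week 0 of cow 2. The part of these measures in the pattern was not tested.

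Cell type markers moved as follows on these arrays. The 6 markers of basal epithelium had medians of 0.18 at week 0 of cow 2, with 5 above 0, and -0.23 at week 1 of cow 3, with 1 above 0, in a range of -0.23 to 0.40 on the others. The 8 markers of differentiating epithelium had 0.05 and -0.12, with 4 and 3 above 0 (others -0.44 to 0.11). The 10 of fibroblasts and matrix had -0.22 and -0.10, with 1 and 2 above 0 (others -0.51 to 0.24). The 10 of endothelium and smooth muscle had -0.01 and 0.0077, with 3 and 7 above 0 (others -0.12 to 0.15), and the 11 of leukocytes -0.02 and -0.21, with 4 and 5 above 0 (others -0.68 to 0.78). On no marker list did both arrays lie outside the range of the others, and since the scale is centred it cannot be said which markers are at or near absence. Their part was not tested either.

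The spread of the 67 genes was divided into raw shares between cows and between weeks. The share of variance between cows had a median of 27.6%, that between weeks 11.5%, and 56.9% lay in neither, while over all genes the medians were 28.6%, 13.4% and 51.4%. In 19 of the 67 genes, or 28.4%, the weeks took the larger share, against 24.6% of all genes. Part of such a share arises in any grouping, and no allowance was made for this.

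The genes with the largest shares between cows were named after these shares were seen. MRPL3, a large subunit protein with a bacterial counterpart, had 91.6% of its variance between cows. Its values in cows 1 to 4 were 0.046, 0.56, -0.10 and -0.24 at week 0, then 0.0097, 0.33, -0.0097 and -0.28 at week 1, and 0.079, 0.38, -0.19 and -0.11 at week 3. Cow 2 was thus highest at every week. The share between cows was 83.6% for MRPL38, a large subunit protein specific to mitochondria, in which cow 2 was highest as well, at 0.33, 0.12 and 0.26. For MRPL57 it was 79.0%, with cow 2 the lowest at every week, at -0.63, -0.29 and -0.95. MRPS31, of the small subunit, had 74.8%, with cow 4 lowest at -0.42, -0.22 and -0.47.

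The first comparison, of week 1 with week 0, concerns the first week of grain. MRPL15 and MRPL32 were higher at week 1 in all 4 cows, and no gene of the 67 passed the test. A probe set was called at a limma p-value under 0.05 after Benjamini-Hochberg adjustment over all 24016 probe sets. No probe set of the array was called (0%, or 0.00833% when cow was added as a block), although 1237 had an unadjusted p under 0.05, and the lowest adjusted p in limma among the 67 genes was 0.683, or 0.185 with the cow as a block. Of the 67 genes 44 were higher and 23 lower, with a median difference of 0.04, and the differences ran from -0.25 to 0.51. Over all genes 63.3% were higher and 36.7% lower, with a median of 0.02. On the deposited values the 65.7% among these genes was thus near the background. After quantile normalization 42 of the 67 were higher, against 46.9% of all genes. With each array centred on its median it was 38, against 47.6%. With the 3 arrays of high hybridization controls left out it was 58, and the share of all genes is not given for that setting.

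MRPL15, a core protein of the large subunit with a bacterial counterpart, had values of -0.37, -0.29, 0.024 and -0.19 at week 0 in cows 1 to 4. At week 1 they were 0.30, 0.29, 0.27 and 0.36, and at week 3 -0.33, -0.29, 0.083 and -0.024. All 4 values of week 1 lay above the 8 others. The difference of week 1 from week 0 was 0.51 ± 0.10 (SE, n = 4 cows, 1.43-fold), with an adjusted p in limma of 0.683. With the cow as a block the SE was 0.08 and the adjusted p in limma 0.185. Within cows it was 0.67, 0.58, 0.25 and 0.55.

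MRPL32 is made as a precursor that a protease of the inner membrane trims before the protein joins the large subunit. Its values were -0.25, -0.013, -0.0094 and -0.0046 at week 0, then 0.12, 0.34, 0.25 and 0.13 at week 1, and 0.0046, 0.0056, -0.031 and -0.015 at week 3. The 4 arrays of week 1 again lay above the 8 others, and cow 1 was apart at week 0. The difference was 0.28 ± 0.06 (1.21-fold, adjusted p in limma 0.686). MRPL15 and MRPL32 were the 2 genes of the 67 with week 1 above every array of the other weeks, and 0.371% of all genes had this order. None had week 1 below every other array, against 0.328% of all genes.

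MRPL50, a large subunit protein specific to mitochondria, was named after its value was seen. It stood at -0.01, -0.065, -0.30 and -0.15 at week 0, and at -0.035, 0.26, 0.28 and 0.024 at week 1. At week 3 it was at 0.15, 0.011, -0.06 and 0.01. The groups of weeks 0 and 1 overlapped through cow 1, and the difference was 0.26 ± 0.09 (adjusted p in limma 0.763). These 3 genes were those with an unadjusted p under 0.05 in limma, all higher at week 1. They were 4.48% of the 67, where 3.76% of all genes reached this in that direction, and none of the 67 reached it in the lower direction, where 2.85% of all genes did. The count of genes higher in all 4 cows was 2, or 2.99%, against 7.48% of all genes, and none was lower in all 4, against 5.29%. In the same 2 genes, MRPL15 and MRPL32, the values of weeks 0 and 1 stayed apart, upward, as in 2.21% of all genes, and in none did they do so downward, against 0.907%.

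**Figure D3:**
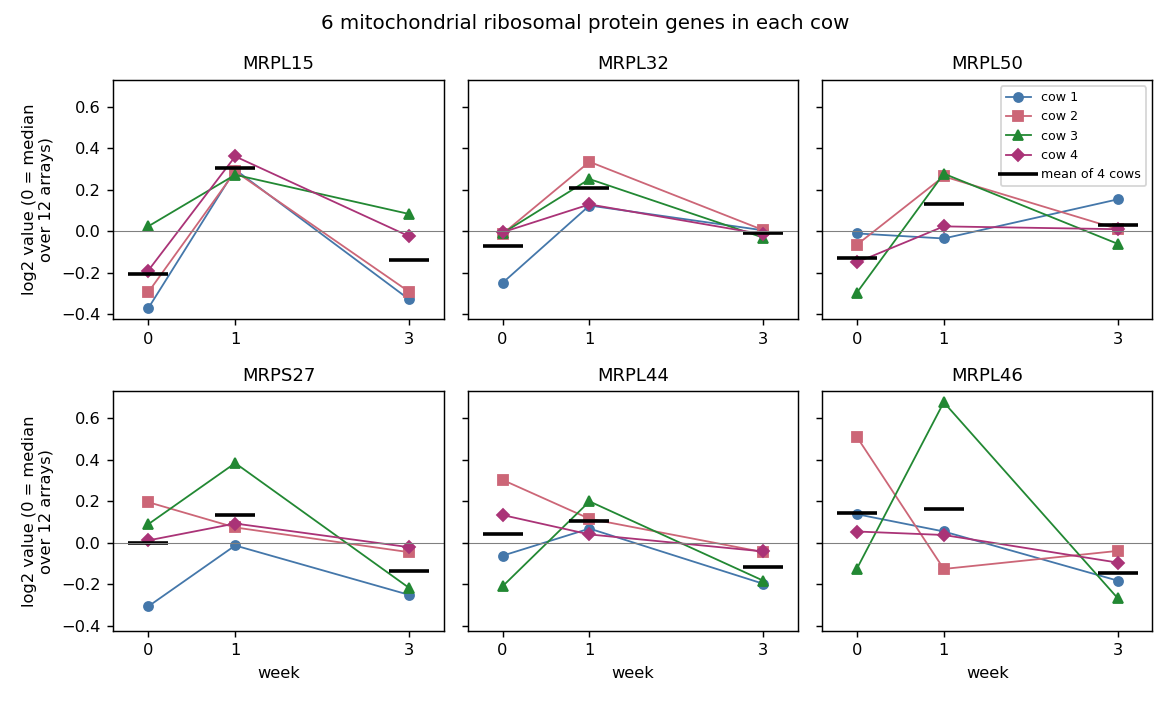
Log2 value in each cow (coloured lines) and mean of the 4 cows (black bar) at weeks 0, 1 and 3 for 6 genes, each centred on its own median. MRPL15 and MRPL32 are highest at week 1 in all 4 cows, and MRPL46 has its highest points at week 0 of cow 2, 0.51, and week 1 of cow 3, 0.68.

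The cows went different ways from week 0 to week 1. In cow 2 the median difference of the 67 genes was -0.22, with 59 lower and 8 higher, while the median of all genes was 0.06. In cow 3 it was 0.30, with 64 higher, while that of all genes was 0.0039. Cow 4 had a median of 0.13 with 48 higher, or 71.6% against 61.6% of all genes. Cow 1 had a median of -0.05 with 24 higher, or 35.8% against 42.4% of all genes. The medians of all genes were 0.05 in cow 4 and -0.03 in cow 1. Over the 4 cows the median had an SD of 0.223, several times the pooled median of 0.04. Without week 1 of cow 3 the pooled median was -0.02 with 30 genes higher, and without week 0 of cow 2 it was 0.12 with 57 higher.

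**Figure D4:**
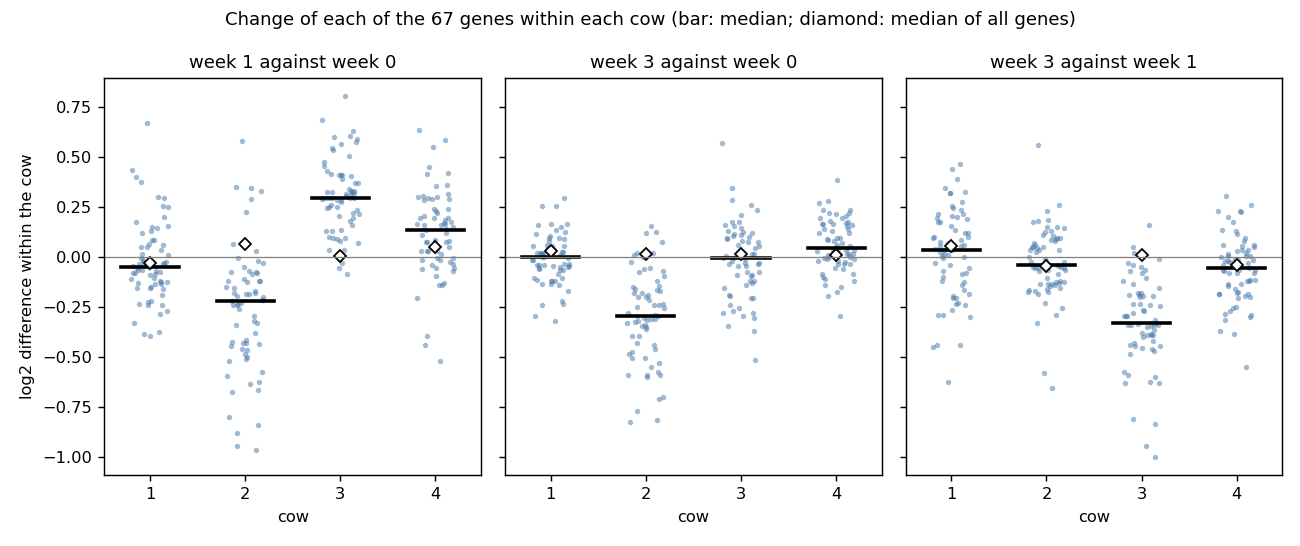
Log2 difference between 2 weeks within each of the 4 cows for each of the 67 genes (points), with their median (bar) and that of all genes (diamond). From week 0 to week 1 the medians are -0.22 in cow 2 and 0.30 in cow 3, and from week 1 to week 3 the median of cow 3 is -0.33.

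The genes of ribosome function that were named in every comparison had small differences at week 1. MRPL12 was at 0.03 ± 0.13, MRPL23 at -0.17 ± 0.20, MRPL58 at -0.10 ± 0.13 and MRPL45, which holds the ribosome at the inner membrane, at 0.04 ± 0.09 (SE, n = 4 cows each). In each of these 4 genes 2 cows were higher and 2 lower. MRPL57 was at 0.13 ± 0.29 and MRPL14 at 0.03 ± 0.04. By subunit, 29 of 45 genes of the large and 14 of 21 of the small subunit were higher, with medians of 0.03 and 0.04. By origin, 23 of 38 genes with a bacterial counterpart and 20 of 28 without were higher, with medians of 0.03 and 0.06.

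Cell type markers differed between these weeks as well, with none called in limma. The 6 markers of basal epithelium were all lower at week 1, with a median difference of -0.32, and their median per array ran from 0.12 to 0.40 at week 0 and from -0.23 to 0.08 at week 1. Of the 8 markers of differentiating epithelium 6 were lower (median -0.38), of the 10 of fibroblasts and matrix 6 were higher (median 0.21), of the 10 of endothelium and smooth muscle 6 were lower (median -0.07) and of the 11 of leukocytes 6 were higher (median 0.03). For comparison, 63.3% of all genes were higher and 36.7% lower. The part of the markers in the differences of the 67 genes was not tested.

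Among other genes of mitochondrial translation, none was called at week 1 in limma. GFM1, an elongation factor of the mitochondrial ribosome, was at 0.41 ± 0.13, and MTERF3, which acts in ribosome assembly and mitochondrial transcription, at 0.31 ± 0.09. MARS2, the mitochondrial methionyl-tRNA synthetase, was at 0.60 ± 0.18. All 3 were higher in 4 of 4 cows, with adjusted p-values in limma of 0.763, 0.711 and 0.758. FASTKD2, which binds the mitochondrial large rRNA, was at 0.30 ± 0.13 and higher in 3 cows. On the lower side GADD45GIP1, a ribosomal protein under another name, was at -0.55 ± 0.26, lower in 3 cows. RPUSD3, of the assembly genes, was at -0.45 ± 0.29, also lower in 3. The adjusted p in limma was 0.763 for both. Of the 5 ribosomal proteins with other names 4 were higher. In the whole lists 6 of 12 translation factors, 11 of 21 assembly genes, 8 of 13 synthetases and 9 of 10 genes of mitochondrial DNA maintenance and transcription were higher. Of the respiratory chain and ATP synthase genes 32 of 78 were higher, of those of import and mass 6 of 15, and of the cytosolic ribosomal proteins 22 of 66. At an unadjusted p under 0.05 in limma, where 3.76% of all genes were higher, the higher genes were 2 of the assembly list, 2 of the cytosolic ribosomal proteins and 1 each of the translation factors, synthetases and respiratory chain, and none of these lists had a lower one.

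The comparison of week 3 with week 0 sets the end of the challenge against forage. More genes were lower than higher, 51 against 16, and no gene of the 67 reached an unadjusted p under 0.05 in limma in either direction, where 3.13% of all genes did so upward and 1.89% downward. No probe set of the array was called (0%, 933 with an unadjusted p under 0.05). The lowest adjusted p in limma among the 67 genes was 0.901, or 0.898 with the cow as a block. The lower genes were 76.1% of the 67, against 35.5% of all genes, and the median difference was -0.07, against 0.02. The differences ran from -0.29 for MRPL46 to 0.16 for MRPL50. The count lower in all 4 cows was 7, or 10.4% against 6.34% of all genes, and 3 were higher in all 4, against 28.1% of all genes. In no gene of the 67 did the values of weeks 0 and 3 stay apart, where 2.95% of all genes did so upward and 1.1% downward.

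The excess of lower genes at week 3 was largest in cow 2, smaller in cows 1 and 3 and absent in cow 4. In cow 2 the median was -0.30, with 59 of 67 lower. In cows 1, 3 and 4 it was -0.0012, -0.0055 and 0.04, with 34, 34 and 21 lower. The genes higher in cow 2 were 11.9% of the 67, against 64.9% of all genes. In cows 1, 3 and 4 they were 49.3%, 49.3% and 68.7%, against 68.5%, 66.4% and 60.4% of all genes. Without week 0 of cow 2 the pooled median was 0.0079 with 36 of 67 genes higher, and without cow 2 altogether it was 0.0054 with 35 higher. With the 3 arrays of high hybridization controls left out it was 0.03, with 46 higher. Week 0 also enters the comparison with week 1, so that the 2 comparisons are not independent.

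Cell type markers differed between weeks 0 and 3 too, with none called in limma. Week 3 had the higher value in 9 of the 10 markers of fibroblasts and matrix, by a median of 0.30, and in 4 the groups did not overlap. Their median per array ran from -0.51 to -0.04 at week 0 and from 0.03 to 0.24 at week 3. Of the leukocyte markers 10 of 11 were higher (median 0.28), 7 of them in all 4 cows. Of the basal epithelial markers 5 of 6 were lower (median -0.28), 4 of them in all 4 cows. For comparison, 64.5% of all genes were higher, 28.1% were higher in all 4 cows and 2.95% stayed apart upward. The share of all genes that were lower was 35.5%, and 6.34% were lower in all 4 cows. Differentiating epithelium had 5 of 8 lower (median -0.03) and endothelium and smooth muscle 6 of 10 lower (median -0.04). Their part in the lower values of the 67 genes was not tested.

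Among the genes named at week 3, MRPL10, which forms the base of the stalk, was at 0.021, -0.14, -0.14 and 0.022 at week 0 in cows 1 to 4 and at 0.19, -0.015, 0.0048 and 0.08 at week 3. The difference was 0.12 ± 0.06, higher in 4 of 4 cows. MRPL50 was at 0.16 ± 0.09 and MRPL15 at 0.07 ± 0.10, also higher in 4 cows. Quantile normalization put MRPL15 at -0.0021. On the lower side MRPL4, part of the wall of the exit tunnel, was at 0.15, 0.22, 0.19 and -0.033 at week 0 and at 0.033, -0.10, -0.10 and -0.052 at week 3, a difference of -0.19 ± 0.10. MRPL30, with a bacterial counterpart, was at -0.17 ± 0.09, and its second probe set at 0.07. MRPL46 was at -0.29 ± 0.17, and its second probe set at 0.01. MRPL49, specific to mitochondria, was at -0.12 ± 0.10. These 4 were lower in 4 of 4 cows. The adjusted p in limma was 0.901 for each of these 7 genes.

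Of the genes given in every comparison, MRPL12 was at -0.15 ± 0.13, MRPL23 at -0.19 ± 0.20, MRPL58 at -0.12 ± 0.13 and MRPL45 at 0.06 ± 0.09 at week 3. All 3 probe sets of MRPL23 had the same sign, at -0.07, -0.19 and -0.19. MRPL57 was at -0.0072 ± 0.29 and MRPL14 at 0.01 ± 0.04. In the large subunit 34 of 45 genes were lower, with a median of -0.07, and in the small subunit 17 of 21, with a median of -0.08. The medians were -0.06 for genes with a bacterial counterpart and -0.08 for those without.

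Most genes of the related lists had lower values at week 3 too. In the list of import and mass 14 of 15 genes were lower, of the respiratory chain and ATP synthase 63 of 78, of the translation factors 10 of 12, of the synthetases 10 of 13 and of the cytosolic ribosomal proteins 53 of 66. The 21 assembly genes were divided, with 11 higher, and of the 10 genes of DNA maintenance and transcription 6 were lower. In the lists given by cow here, the median fell most in cow 2. The median of import and mass fell in all 4 cows. Of its genes 6 of 15 were lower in 4 of 4 cows, or 40%, against 6.34% of all genes. The respiratory chain and ATP synthase list had medians of 0.32 at week 0 and -0.04 at week 3 in cow 2, against 0.08 and 0.07 in cow 1, -0.06 and -0.04 in cow 3 and -0.21 and -0.0042 in cow 4. The cytosolic ribosomal proteins had 0.18 and -0.09 in cow 2 and 0.06 and 0.04 in cow 1, but -0.05 and 0.04 in cow 3 and -0.10 and -0.03 in cow 4. The list of import and mass had 0.22 and -0.0060 in cow 2, and lower medians at week 3 in the other cows as well, at -0.030 and -0.045 in cow 1, 0.03 and -0.08 in cow 3 and -0.026 and -0.035 in cow 4. TOMM40, the pore of protein import in the outer membrane, was at -0.28 ± 0.08 and lower in 4 of 4 cows, and GADD45GIP1, a ribosomal protein under another name, at -0.63 ± 0.26, lower in 4 cows. Both had an adjusted p in limma of 0.901. No gene of these lists was called. At an unadjusted p under 0.05 in limma, where 1.89% of all genes were lower, the lower genes were 3 of 15 of import and mass (TOMM40, HSPA9 and VDAC1), 1 of 21 of assembly (TRUB2) and 1 of 5 ribosomal proteins with other names (GADD45GIP1). The other 5 lists had none lower, and SDHD, of the respiratory chain, was the 1 higher.

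The comparison of week 3 with week 1 follows the challenge over time. Of the 67 genes 51 were lower at week 3 and 16 higher, with a median of -0.10 against -0.01 for all genes, and the differences ran from -0.44 to 0.10. Of all genes 59.2% were lower, of these 76.1%. No probe set of the array was called (0%, 1172 with an unadjusted p under 0.05), and the lowest adjusted p in limma among the 67 was 0.575, or 0.175 with the cow as a block.

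At an unadjusted p under 0.05 in limma 7 of the 67 genes were lower, or 10.4% against 3.16% of all genes, and none was higher, where 3.68% of all genes were. With the cow as a block 9 were lower, where 4.21% of all genes were. None of the 67 was higher in all 4 cows, against 7.35% of all genes. The genes lower in all 4 cows were 12, or 17.9% against 5.68% of all genes: MRPL12, MRPL15, MRPL19, MRPL32, MRPL35, MRPL37, MRPL43, MRPL44, MRPS14, MRPS22, MRPS27 and MRPS31. In 4 of them, MRPL15, MRPL32, MRPL44 and MRPS27, every value of week 3 lay below every value of week 1, which was 5.97% of the 67 against 1.69% of all genes. None had week 3 above week 1 in this way, against 1.55% of all genes.

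This comparison leaned on cow 3. Its median was -0.33, with 63 of 67 genes lower, while the medians of cows 1, 2 and 4 were 0.04, -0.04 and -0.05, with 27, 38 and 43 lower. All genes had a median of 0.01 in cow 3, and of 0.05, -0.04 and -0.04 in cows 1, 2 and 4. In cow 3, 5.97% of the 67 were higher, against 63.4% of all genes. In cows 1, 2 and 4 it was 59.7%, 43.3% and 35.8%, against 61.1%, 37.4% and 42.1%. Without week 1 of cow 3 the pooled median was -0.03, with 26 genes higher and 2 at an unadjusted p under 0.05 in limma, and without cow 3 it was -0.01, with 31 higher and 2.

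MRPL15 had the largest difference of the 67, -0.44 ± 0.10 (SE, n = 4 cows, 1.36-fold lower at week 3, adjusted p in limma 0.575), with -0.63, -0.58, -0.19 and -0.39 within cows 1 to 4. MRPL32 was at -0.22 ± 0.06 (adjusted p in limma 0.710), and its values of week 3 lay close together, between -0.031 and 0.0056. Without cow 3 the differences were -0.53 for MRPL15 and between -0.25 and -0.18 for MRPL32 over all omissions of 1 array or cow.

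MRPS27, a protein of the small subunit with pentatricopeptide repeats, was at -0.31, 0.20, 0.09 and 0.012 at week 0 in cows 1 to 4. At week 1 it was at -0.012, 0.075, 0.38 and 0.094 and at week 3 at -0.25, -0.045, -0.22 and -0.02. Its difference was -0.27 ± 0.12, and within cow 3 alone it was -0.60. MRPL44, a large subunit protein with a fold like that of RNase III, was at -0.061, 0.30, -0.21 and 0.13 at week 0, at 0.069, 0.12, 0.20 and 0.041 at week 1, and at -0.20, -0.044, -0.18 and -0.041 at week 3. Its difference was -0.22 ± 0.10. At week 0 the values of MRPL44 spanned those of the other weeks. The adjusted p in limma was 0.999 for each.

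The remaining 3 genes with an unadjusted p under 0.05 were named after their values were seen. MRPL20, with a bacterial counterpart, was at -0.076, 0.073, 0.20 and 0.24 at week 1 and at -0.021, -0.22, -0.18 and -0.31 at week 3, a difference of -0.29 ± 0.12 with 3 of 4 cows lower. Its second probe set was at -0.26. MRPL19, with a bacterial counterpart, was at -0.15 ± 0.07 and MRPL43, specific to mitochondria, at -0.20 ± 0.09, both lower in 4 cows. Their adjusted p-values in limma were 0.971, 0.999 and 0.999. The second probe set of MRPL43 was at -0.11, with an unadjusted p in limma of 0.251. MRPS14, of the small subunit, had a larger difference of -0.35 with an SE of 0.24, since its values spread from -0.59 to 0.33 at week 3.

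**Figure D5:**
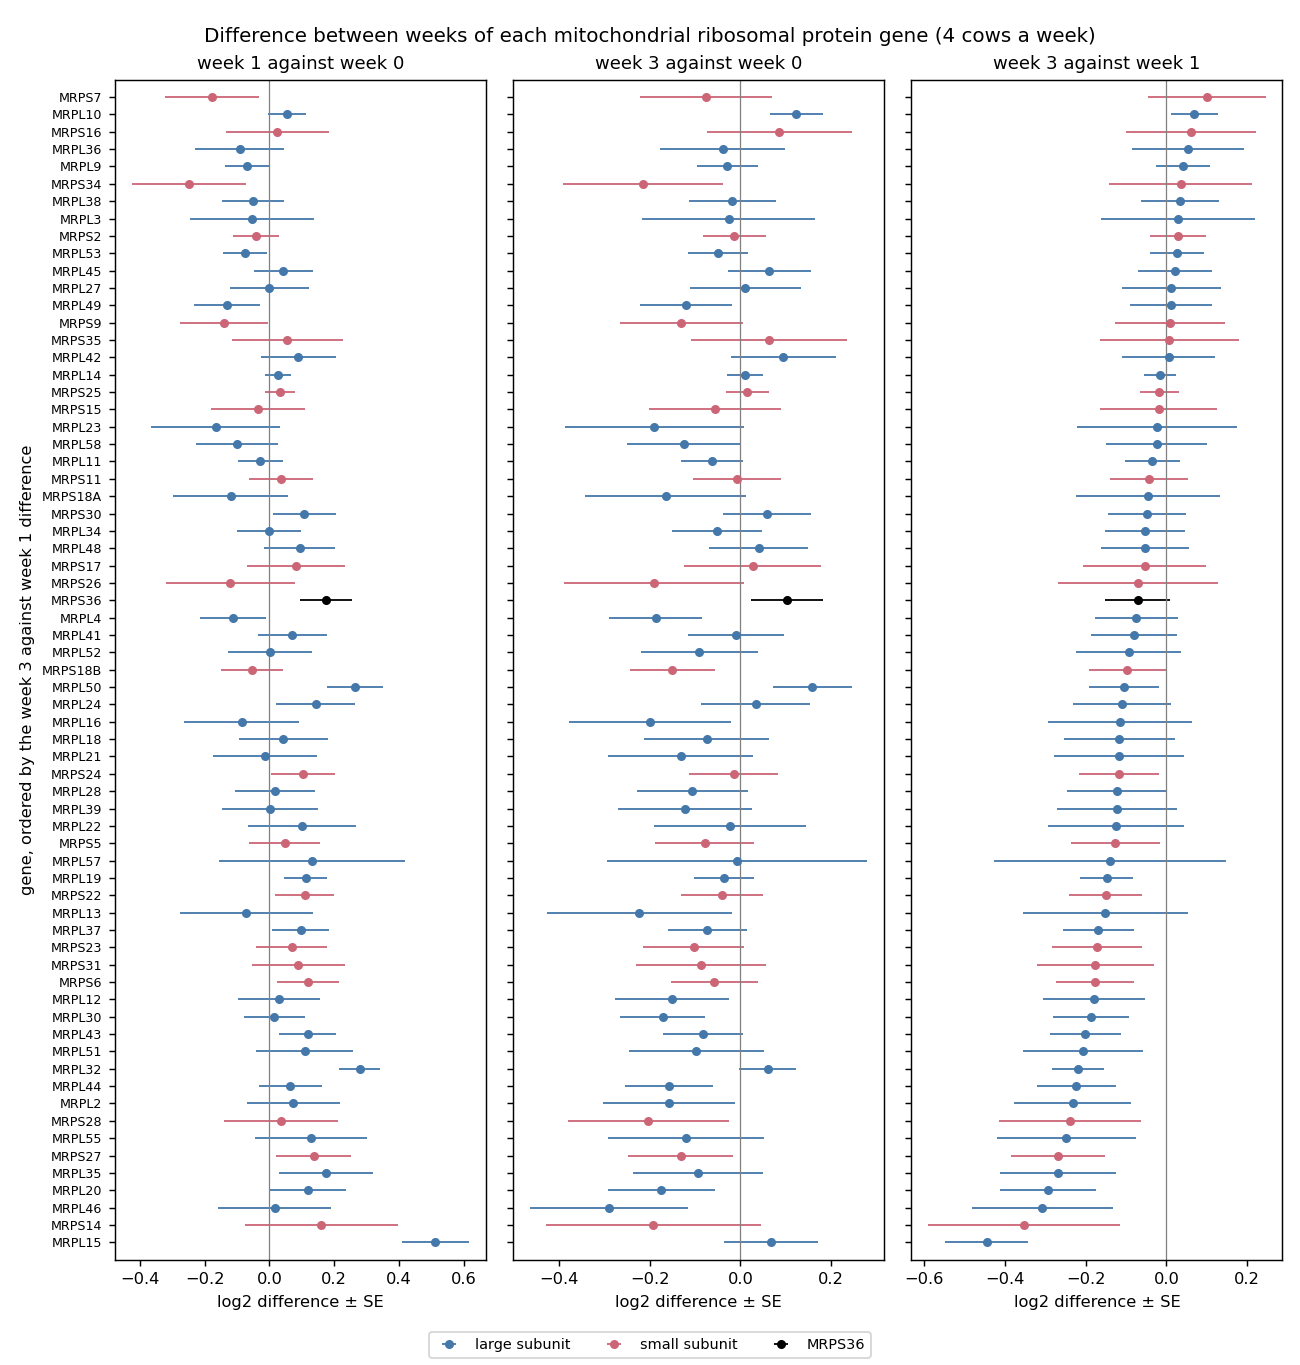
Log2 difference between weeks with its SE (limma, 4 cows a week) for each of the 67 genes, ordered by the difference of week 3 from week 1 and coloured by subunit. MRPL15 stands at 0.51 in the first panel and at -0.44 in the last, and genes of both subunits are spread over the whole order.

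MRPL12 was at -0.18 ± 0.13, MRPL23 at -0.02 ± 0.20, MRPL45 at 0.02 ± 0.09 and MRPL58 at -0.02 ± 0.13 between weeks 1 and 3. MRPL57 was at -0.14 ± 0.29 and MRPL14 at -0.02 ± 0.04. The large subunit had 35 of 45 genes lower, with a median of -0.11, and the small subunit 15 of 21, with a median of -0.07. Of the genes with a bacterial counterpart 29 of 38 were lower and of those without 21 of 28, with medians of -0.12 and -0.09. No difference between subunits or origins was tested.

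GFM1, MARS2 and FASTKD2, which were higher at week 1, were at -0.44 ± 0.13, -0.68 ± 0.18 and -0.43 ± 0.13 at week 3 against week 1, lower in 4, 3 and 4 cows (adjusted p in limma 0.715, 0.645 and 0.715). TFB2M, a factor of mitochondrial transcription, was at -0.35 ± 0.13, and TOMM40 at -0.24 ± 0.08. In the lists, 9 of 10 genes of mitochondrial DNA maintenance and transcription, 12 of 15 of import and mass, 10 of 12 translation factors, 14 of 21 assembly genes, 9 of 13 synthetases and 5 of 5 ribosomal proteins with other names were lower. Of the respiratory chain and ATP synthase genes 54 of 78 were lower and of the cytosolic ribosomal proteins 47 of 66. No gene of these lists was called. At an unadjusted p under 0.05 in limma, where 3.16% of all genes were lower, the lower genes were 3 of 10 of DNA maintenance and transcription, 3 of 15 of import and mass, 3 of 21 of assembly, 1 of 12 translation factors, 1 of 13 synthetases and 2 of 66 cytosolic ribosomal proteins. None of the 78 respiratory chain genes or the 5 ribosomal proteins with other names was among them, and no list had a higher gene at that level. Among cell type markers 9 of 10 of fibroblasts and matrix, 6 of 8 of differentiating epithelium and 6 of 11 of leukocytes were higher (medians 0.29, 0.08 and 0.34). Those lower were 4 of 6 of basal epithelium and 8 of 10 of endothelium and smooth muscle (medians -0.03 and -0.03). For comparison, 40.8% of all genes were higher and 59.2% lower, and the part of the markers was not tested. Since both comparisons use week 1, a gene high at week 1 enters both, and they do not support each other.

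In a moderated F test of limma over the 3 weeks, 3 of the 67 genes had an unadjusted p under 0.05, or 2 with the cow as a block, where 6.9% of all genes did without it. No probe set of the array was called (0%, or 0.00416% with the block, and 1204 with an unadjusted p under 0.05). The lowest adjusted p in limma among the 67 genes was 0.638, or 0.186 with the block.

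The share of higher genes depends on how arrays are set against each other. From week 0 to week 1 the share of all genes that were higher was 63.3% on the deposited values, 46.9% after quantile normalization and 47.6% with each array centred on its median. From week 0 to week 3 it was 64.5%, 47.4% and 51.9%, and from week 1 to week 3 40.8%, 48.3% and 53.6%. The genes of the mitochondrial ribosome moved less with this choice, with 44, 42 and 38 of 67 higher at week 1 against week 0. They were 16, 13 and 13 at week 3 against week 0 and 16, 11 and 16 at week 3 against week 1. Of the 67 genes 14 had several probe sets, and the signs of these differed in 5, 7 and 6 genes in the 3 comparisons, in none with an unadjusted p under 0.05 on both sides.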

How the data were processed

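From each sample 10 µg of total RNA was turned into biotin-labelled cRNA for Affymetrix arrays, per the labels' protocols. The values the authors deposited are on a log2 scale and were made with GCRMA, per the submitters' processing notes, which name no version. The log base is not stated and was inferred: 1 probe set spans 11.2 units, and read as natural logs that span is 74399-fold, more than the 65535 steps a scanner can record. Each probe set had a median of 0 over the 12 arrays, so no filter or background correction by level was possible.

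Of 24128 probe sets the 112 AFFX controls were left out. Of the 24016 tested, 13292 named 1 gene, 86 several and 10638 none, and the genes with 1 symbol numbered 9155. All 67 symbols matched the RefSeq genes of assembly ARS-UCD2.0, used for names only. Each pair of weeks was compared in 1 model of the 12 arrays that fitted the weekly means without the cow, in limma 3.58.1 (lmFit, eBayes, two-sided) under R 4.3.3. P-values were adjusted by Benjamini-Hochberg over all probe sets and called under 0.05. The replicates are separate animals, and the number of arrays limits the precision.

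The same 4 cows were sampled at each week. Deviations from the weekly means correlated at 0.343 to 0.706 within a cow (12 pairs) and at -0.481 to 0.0660 between cows (36 pairs), so a fit with the cow as a replicate block was run beside each test. The SE and adjusted p given with a gene are from the fit without the cow unless another fit is named.

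The members, gene lists and tests were chosen with earlier results of these data known. Named in each comparison were up to 4 genes in each direction with the smallest unadjusted p among those of 1 sign in all 4 cows, any called gene, the genes of largest and smallest SD, genes with probe sets of clearly opposite sign, and MRPL12, MRPL23, MRPL45 and MRPL58, with up to 3 genes of each related list. MRPS12 was to be named too and was not analysed here. The alternatives were the block, quantile normalization, centring, the mean of a gene's probe sets, leaving out the 40% of probe sets of lowest SD, array weights, robust empirical Bayes, and leaving out single arrays, cows or the 3 arrays of high hybridization controls. The fits were tested on simulated data.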

Additional observations from a re-analysis of the deposited data

Results flagged for a closer look

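Among 60 groups of 4 values examined, each a week of a named gene or of the median of the 67 genes, 3 had a cow so far from the other 3 that the gap, as a share of the group's range, exceeded Dixon's critical value. Chance gives about 1 in 20. MRPL32 at week 0 was at -0.25 in cow 1, against -0.013 to -0.0046 in the other cows. The median of the 67 genes at week 1 was 0.25 in cow 3, against -0.03 to 0.01. MRPL57 at week 3 was at -0.95 in cow 2, against 0.06 to 0.19.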

How the results depend on the processing

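With the cow as a replicate block 2 probe sets of the array were called at week 1 against week 0 and 1 over the 3 weeks together, none of the 67 genes among them, and the block changed no call of a member. The mean of a gene's probe sets gave 1 and 1, and leaving out the probe sets of lowest SD 2 at week 1. Array weights, which set week 1 of cow 1 to a weight of 0.0618, called 9970 probe sets at week 1, 7 at week 3 against week 0, 97 at week 3 against week 1 and 6112 over the 3 weeks. With them 3 of the 67 genes were called at week 1 and 2 over the 3 weeks. The 9970 and 6112 calls were out of 24016 probe sets. A smaller share of the 67 genes was thus called than of the array in both tests. MRPL15 at 0.59 and MRPL32 at 0.32 were among the genes called at week 1 (adjusted p in limma 0.0160 for both). Leaving out the 3 arrays with high hybridization controls gave 5, 6, 12 and 8 called probe sets in the 4 tests in that order, while quantile normalization gave 2 in the second of them. Leaving out 1 array or 1 cow gave 0 to 45 calls at week 1, 0 to 2 at week 3 against week 0, 0 to 38 at week 3 against week 1 and 0 to 28 over the 3 weeks, the most in 3 of these without week 1 of cow 1 and at week 3 against week 0 without week 3 of cow 1.

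With the 3 arrays of high hybridization controls left out 58 of the 67 genes were higher at week 1. The median of the 67 genes at week 1 reached 0.18 over the alternatives other than single omissions. It was -0.0082 with array weights and -0.050 to 0.14 without 1 array or cow, with 26 to 60 genes higher. Between weeks 0 and 3 it was 0.030 without the 3 arrays, with 46 genes higher, and -0.12 to 0.0079 without 1 array or cow, with 11 to 36 higher. Between weeks 1 and 3, 26 genes were higher with array weights and 9 to 31 without 1 array or cow. Genes at an unadjusted p under 0.05 in limma at week 1 were 14 higher without the 3 arrays and 2 lower with array weights, and 2 to 7 higher and 0 to 1 lower without 1 array or cow. Between weeks 0 and 3, quantile normalization gave 1 lower, array weights 3 lower and 1 higher, the 3 arrays left out 2 higher, and single omissions 0 to 4 lower and 0 to 1 higher. Between weeks 1 and 3, centring and the removal of low SD each gave 3 lower, and single omissions 2 to 9. Over the 3 weeks together it was 8 without the 3 arrays and 2 to 5 with single omissions. The share of all genes at that level under these alternatives is not given here, so these counts cannot be set against a background.

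Of 837 values of named genes under alternatives 57 changed sign, 2 became called and 778 did neither. At week 1 MRPL12 was at -0.011 after quantile normalization and at -0.064 with array weights, which put MRPL45 at -0.0082. Without the 3 arrays MRPL23 was at 0.14, MRPL58 at 0.12 and MRPL57 at -0.026. For week 3 against week 0 MRPL15 was at -0.0021 and MRPL14 at -0.0040 after quantile normalization, and MRPL14 at -0.0057 after centring. Without the 3 arrays MRPL15 was at -0.057, MRPL12 at 0.030, MRPL23 at 0.19 and MRPL58 at 0.070. For week 3 against week 1 MRPL23 was at 0.059 and MRPL58 at 0.014 with array weights, and MRPL23 at 0.047 without the 3 arrays. Single omissions changed signs at week 1 for MRPL12 (-0.10 to 0.18), MRPL23 (-0.33 to 0.099), MRPL45 (-0.042 to 0.093), MRPL58 (-0.24 to 0.075), MRPL57 (-0.044 to 0.25) and MRPL14 (-0.00049 to 0.059). Between weeks 0 and 3 they did so for MRPL15 (-0.0070 to 0.14), MRPL23 (-0.34 to 0.019), MRPL58 (-0.19 to 0.010), MRPL57 (-0.18 to 0.26) and MRPL14 (-0.024 to 0.043). Between weeks 1 and 3 they did so for MRPL23 (-0.098 to 0.047), MRPL45 (-0.036 to 0.13), MRPL58 (-0.073 to 0.073), MRPL57 (-0.32 to 0.13) and MRPL14 (-0.035 to 0.0065). MRPL15 and MRPL32 kept their direction under every alternative at week 1 against week 0 and at week 3 against week 1. The cause of these shifts was not tested, and with 4 cows a week small differences are limited by the spread between cows.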
